A study of Homo sapiens with 9 samples.

Results

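The BCL2 family of apoptosis regulators was followed in uveal melanoma (UM) cells after transfection of synthetic miR-16. Its members were chosen by gene symbol, with earlier results of these data known: BCL2, MCL1, BCL2L1, BCL2L2, BCL2L11, BBC3, PMAIP1, BAX, BAK1, and BID. Of these 10 genes, 9 had a row among the 14839 genes of the table, and BID is not analysed here. PolyA RNA of MP41, a UM cell line, was sequenced from untransfected cells at 0 h and from cells given miR-16 or a control mimic (miR-CTR), each at 66 nM, at 6, 12, 24, and 48 h. The 9 conditions had 1 library each, all from this single cell line, so a difference at a given time or in the early or late window has no test. A difference shared by the 4 times was tested with limma, which took the libraries of a time as a pair. The sequence of the transfected miR-CTR is not used here.

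The values are log2 normalised read counts. The logFC is the value with miR-16 minus that with miR-CTR at the same time, early (mean of 6 and 12 h) or late (mean of 24 and 48 h), and a gene past 0.5 in size is called. Library totals lay between 20300000 and 27300000 reads. Except for those of the limma fit, the 95% intervals are computed from the reads of each gene. They cover counting error only, not the spread between cultures. Table columns carry time indices, which were read in ascending order as the hours of the sample titles. All 7 melanocyte markers had a row, with values between 12.29 and 17.88, while the lymphocyte, endothelial, and keratinocyte markers had none. Of 4 fibroblast markers, COL1A1 and LUM had a row, between 6.94 and 8.86. CCND1, CCND3, and WEE1, which the study names as miR-16 targets, had a late logFC of −0.63, −1.02, and −1.055.

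Proteins of this family decide whether the outer membrane of mitochondria stays closed. The guardians BCL2, MCL1, BCL2L1 (BCL-XL), and BCL2L2 (BCL-w) hold the effectors BAX and BAK1 in check, whereas BH3-only proteins such as BCL2L11 (BIM), BBC3 (PUMA), PMAIP1 (NOXA), and BID bind the guardians or the effectors and favour opening, after which cytochrome c reaches the cytosol and caspases are activated. BCL2 is a classic target of miR-15 and miR-16, which are lost together with a part of chromosome 13 in many chronic lymphocytic leukaemias, and MCL1 sustains many melanoma cells.

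A miRNA recognises mRNAs mainly through its seed, bases 2 to 8. The mature miR-16 sequence and each match to its seed found in the longest annotated 3′UTR of a member are shown, since they set apart the members that a canonical pairing could reach. The miRNA is from RefSeq (GRCh38.p14), with the seed in capitals, and the sites are from GENCODE version 29 transcripts, with the match in capitals.
hsa-miR-16-5p: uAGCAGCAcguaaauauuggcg
BCL2 site: atccaatcctgTGCTGCTAtcctgccaaaa
BCL2L2 site a: accgagggctcTGCTGCTtctttccagaaa
BCL2L2 site b: cattatgcactTGCTGCTgcctcctgggct
BCL2L2 site c: ggtgctaagatTGCTGCTctccaatgctaa
BCL2L2 site d: attaaggggttTGCTGCTgaaaaaaagttg
BCL2L11 site: acgcccctttgTGCTGCTggcttttctggt

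The miR-16 sequence is encoded at chr13:50049027-50049048 on the reverse strand (MIR16-1) and at chr3:160404754-160404775 on the forward strand (MIR16-2), and miR-15a-5p and miR-15b-5p carry the same seed. The match searched was TGCTGCT (7mer-m8), the same with an A after it (TGCTGCTA, 8mer), or GCTGCTA (7mer-A1), on the sense strand of the 3′UTR. On GRCh38, the BCL2 8mer lies at chr18:63126089-63126096 on the reverse strand. The BCL2L2 7mers lie on the forward strand at chr14:23309638-23309644, chr14:23309742-23309748, chr14:23310355-23310361, and chr14:23310898-23310904. The BCL2L11 7mer lies at chr2:111165216-111165222 on the forward strand.

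Of the 9 members, 3 had a match (BCL2, BCL2L2, and BCL2L11), compared with 29.2% of 11570 protein-coding genes with a 3′UTR. BCL2 had the only 8mer, at bases 2529 to 2536 of a 5279-base 3′UTR, and 4.95% of genes had an 8mer. BCL2L2 had 4 7mer-m8 matches within 2794 bases, starting at bases 673, 777, 1390, and 1933 of the 3′UTR. BCL2L11 had 1 at bases 1251 to 1257 of 4480. The MCL1, PMAIP1, BAX, and BAK1 3′UTRs held none of these, not even the 6mer GCTGCT, while BCL2L1 held 3 6mers and BBC3 held 1. The BCL2 8mer lay in 1 of 3 annotated coding transcripts with a 3′UTR, and another of these, with a 3′UTR of 4247 bases, held 3 7mer-m8 matches of its own, starting at bases 2543, 2546, and 2819. The BCL2L2 matches lay in 1 of 2, and the BCL2L11 match in 8 of 13, and which of them MP41 uses is not known from gene-level values. A match is a description of the letters and does not show binding.

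Late after transfection, 2 of the 9 members were called lower with miR-16, the guardian BCL2L2 and the BH3-only gene PMAIP1, and 0 were called higher. Over all genes, 5.73% were called lower and 7.76% higher. Early, 0 members were called in either direction, beside 1.45% of all genes lower and 2.04% higher. The median late logFC was 0.005 over the members and 0.005 over all genes, with 5 members above 0 and 4 below. The late logFC of the other guardians and of the effectors lay between −0.05 and 0.31. Over the 4 times, the limma fit called BCL2L2 and PMAIP1 lower and BAK1 higher (adjusted p under 0.05 over all genes), beside 5.73% of all genes lower and 4.93% higher. The mean difference of BCL2L2 was −0.53 (95% interval −0.75 to −0.32, limma adjusted p = 0.0115), lower at 4 of 4 times. That of PMAIP1 was −0.425 (−0.65 to −0.20, limma adjusted p = 0.0283), lower at 4 of 4 times. BAK1 was higher at 4 of 4 times, by 0.32 (0.19 to 0.45, limma adjusted p = 0.0107). The other 6 members were not called, with limma adjusted p between 0.191 and 0.899 and an interval for BCL2 of −0.14 to 0.19. The fit has 3 residual degrees of freedom and counts a difference that grows with time as spread. The 4 times stand in for replicates. The limma p-values and intervals therefore rest on the spread of the difference over the times, not on replicate cultures of a condition. For each gene, limma also draws this spread towards a trend fitted over all genes. Without the pair at 12 h or at 24 h, 0 members were called by limma, although 4 and 3 of them had an unadjusted p under 0.05. Of all 14839 genes, 185 were then called lower and 196 higher without 12 h, and 0 in either direction without 24 h. The limma unadjusted p was under 0.05 for 3942 and 2496 of all genes. Without the pair at 48 h, PMAIP1 was not called, beside 632 of all genes called lower and 557 higher.

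Because whole cultures were lysed, a lower level in every cell and loss of the transcript from some of the cells cannot be told apart.

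**Figure D1:**
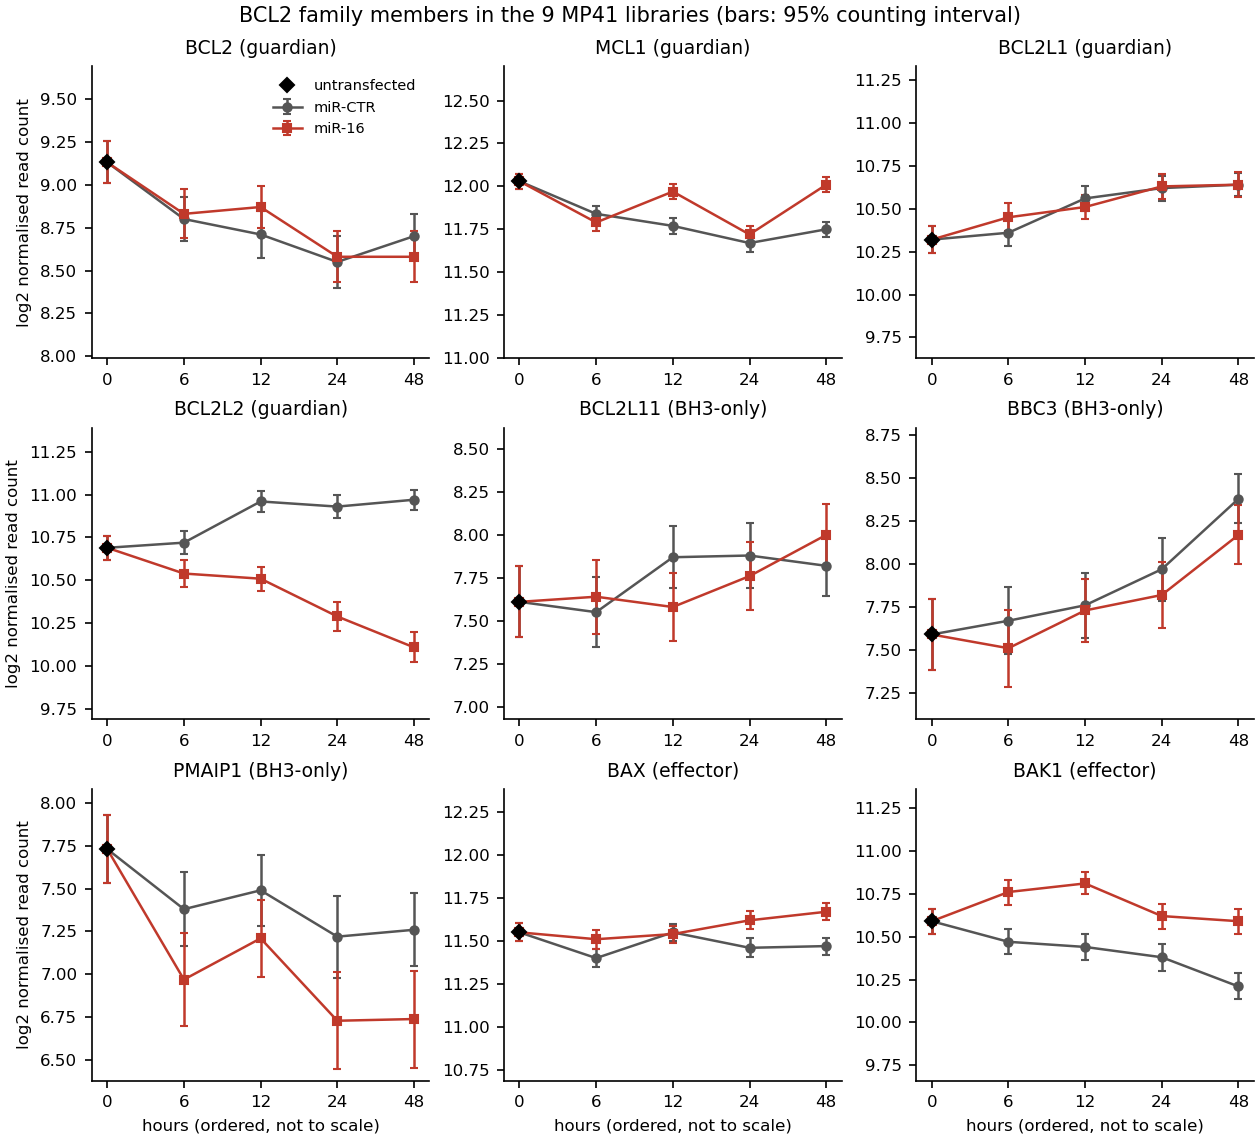
Log2 normalised read count (vertical axis, the same span in each panel) of the 9 members against time in hours, in order and not to scale. The black diamond is the untransfected library, grey circles are miR-CTR and red squares are miR-16, with 1 library per point and 95% counting intervals as bars. BCL2L2 separates from 6 h on and reaches 10.11 with miR-16 against 10.97 with miR-CTR at 48 h, while BCL2L1 follows nearly the same line with both mimics.

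Among the guardians, BCL2L2 had the largest difference between the mimics. It stood at 10.69 in untransfected cells. With miR-CTR it was 10.72, 10.96, 10.93, and 10.97 at 6, 12, 24, and 48 h. With miR-16 it was 10.54, 10.51, 10.29, and 10.11 at the same times. All 4 miR-16 libraries were thus below the untransfected library and all 4 miR-CTR libraries above it, and the groups did not overlap. The share of all genes whose mimics separate without overlap is not given, here or for the members below. The logFC of BCL2L2 was −0.18, −0.45, −0.64, and −0.86 in order of time. Its late logFC of −0.75 (95% counting interval −0.82 to −0.68) is a ratio of 0.595, and 98.4% of all genes had a higher one. The reads behind it numbered 1191 and 1047 with miR-16 and 1857 and 2348 with miR-CTR at 24 and 48 h.

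BCL2L2 (ENSG00000129473.9) lies at chr14:23298790-23311759 and shares 19.4% of its exon bases with BCL2L2-PABPN1, a read-through gene on the same strand. The read-through gene had between 13 and 30 reads per library and a late logFC of −0.08, with a counting standard error of 0.36. PABPN1 itself had a late logFC of −0.18 (standard error 0.04). These neighbours were named after their values were seen. How reads in the shared exons were assigned was not tested.

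BCL2, the founding member of the family, gave another course. Its value was 9.13 at 0 h. The miR-CTR series read 8.80, 8.71, 8.55, and 8.70, and the miR-16 series 8.83, 8.87, 8.58, and 8.58. All 8 transfected libraries were below the untransfected library, and the mimics overlapped. Its late logFC was −0.05 (−0.19 to 0.10), from 356 to 486 reads per library, so a difference beyond those bounds lies outside its counting error. The early logFC was 0.10 (−0.04 to 0.23). Among the 573 genes with an 8mer the median late logFC was −0.165, and 66.0% of them had a lower value than BCL2.

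MCL1, a short-lived guardian, was the most abundant of the guardians. It stood at 12.03 at 0 h. The miR-CTR libraries had 11.84, 11.77, 11.67, and 11.75, and the miR-16 libraries had 11.79, 11.97, 11.72, and 12.01. The miR-16 value was higher at 12, 24, and 48 h and lower at 6 h, and the groups overlapped. The late logFC was 0.155 (0.11 to 0.20), which was 0.05 at 24 h and 0.26 at 48 h, and neither time was past 0.5.

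BCL2L1 did not separate the mimics. Its value was 10.32 at 0 h and then 10.36, 10.56, 10.62, and 10.64 with miR-CTR. With miR-16 it was 10.45, 10.51, 10.63, and 10.64. The late logFC was 0.005 (−0.07 to 0.08), an interval well inside 0.5 on both sides. On the opposite strand, the antisense gene ABALON covers 43.0% of the BCL2L1 exon bases. Whether the counting used strand is not given in the sources used here, so their reads may not be separable.

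The BH3-only members had the fewest reads among the members, 100 to 389 per library, and the widest intervals. PMAIP1, which mainly neutralises MCL1, had a value of 7.73 at 0 h. The miR-CTR libraries had 7.38, 7.49, 7.22, and 7.26, whereas the miR-16 libraries had 6.97, 7.21, 6.73, and 6.74. The miR-16 value was lower at all 4 times, and the miR-16 libraries lay between 6.73 and 7.21 while the miR-CTR libraries lay between 7.22 and 7.49. Its late logFC of −0.505 (−0.76 to −0.25) only just passed the threshold, and the interval includes values on either side of it. With each library centred on its median gene it was −0.495 and no longer called. It rests on 100 reads in each of the miR-16 libraries against 141 and 178 with miR-CTR. PMAIP1 lacks a seed match in its annotated 3′UTRs.

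BBC3, a direct p53 target that binds all guardians, was higher at later times with both mimics. It was 7.59 at 0 h, and 7.67, 7.76, 7.97, and 8.38 with miR-CTR. With miR-16 it was 7.51, 7.73, 7.82, and 8.17, lower than the control at all 4 times by 0.03 to 0.21. The late logFC was −0.18 (−0.35 to −0.01).

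BCL2L11 encodes BIM, whose isoforms can activate BAX directly. It was 7.61 at 0 h, between 7.55 and 7.88 with miR-CTR, and between 7.58 and 8.0 with miR-16. The mimics overlapped, with miR-16 higher at 6 and 48 h and lower at 12 and 24 h. The late logFC was 0.03 (−0.16 to 0.22). On the opposite strand, the lincRNA gene MIR4435-2HG, which has no row, covers 10.9% of the BCL2L11 exon bases. Reads of these 2 genes may not be separable either. Of the 2383 genes whose best match was a 7mer-m8, 64.0% had a lower late logFC than BCL2L11 and 2.27% had a lower one than BCL2L2. The median of these genes was −0.07, and 8.39% of them were past −0.5. Of the 6156 genes without an 8mer, 7mer, or 6mer, 3.49% were past −0.5.

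**Figure D2:**
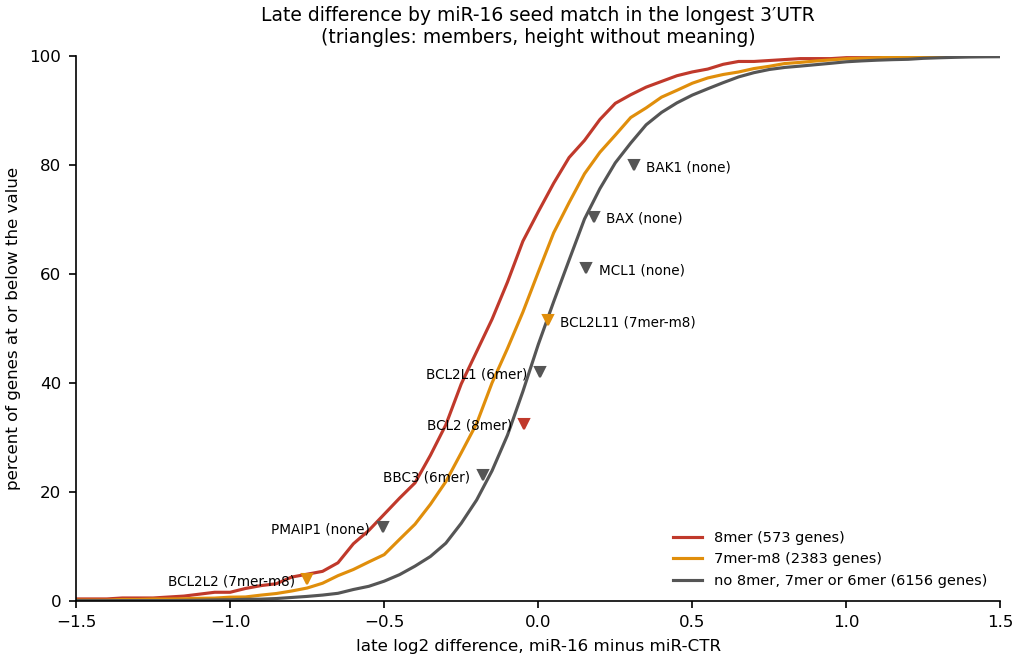
Percent of genes at or below a late logFC (horizontal axis, log2, miR-16 minus miR-CTR) for genes with an 8mer, a 7mer-m8, or no match to the miR-16 seed in the longest 3′UTR. Triangles place the 9 members at their late logFC in the colour of their own match, and their height has no meaning. The curve of the 8mer genes lies to the left (median −0.165), BCL2L2 lies in the lower tail at −0.75, and BCL2 lies near 0 at −0.05.

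Both effectors, which form the pore of the mitochondrial membrane, were on the higher side with miR-16 without passing 0.5. BAK1 stood at 10.59 at 0 h. It was 10.47, 10.44, 10.38, and 10.21 in the miR-CTR series. In the miR-16 series it was 10.76, 10.81, 10.62, and 10.59. All 4 miR-16 libraries were above all 4 miR-CTR libraries and at or above the untransfected library. The logFC was 0.29, 0.37, 0.24, and 0.38 in order of time, with a late value of 0.31 (0.23 to 0.39) and an early value of 0.33 (0.26 to 0.40). The early value was higher than that of 94.9% of all genes and the late value than that of 83.9%. A processed pseudogene of BAK1 on chromosome 20, BAK1P1, had 70 to 100 reads per library and a late logFC of 0.37 (standard error 0.17), and it was named after its values were seen. Reads of BAK1 and this copy may not be separable.

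BAX was 11.55 at 0 h, between 11.40 and 11.55 in the miR-CTR series, whereas the miR-16 series read 11.51, 11.54, 11.62, and 11.67. The mimics differed in order at 12 h only, where miR-16 was lower by 0.01. At 24 and 48 h both miR-16 values were above, and both miR-CTR values below, the untransfected library. The late logFC was 0.18 (0.13 to 0.23).

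**Figure D3:**
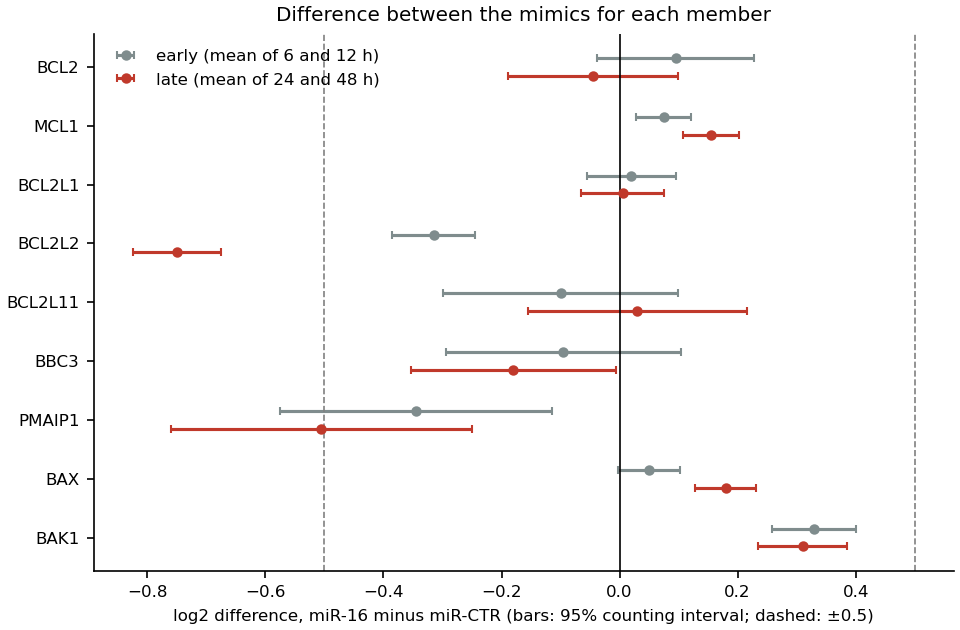
LogFC of each member (miR-16 minus miR-CTR, log2, horizontal axis) early in grey and late in red, with 95% counting intervals as bars and dashed lines at 0.5 on either side of 0. BCL2L2 lies at −0.75 and PMAIP1 at −0.505 late, BAK1 lies near 0.3 in both windows, and the interval of BCL2 spans 0.

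The comparison with untransfected cells separates what both mimics share from what differs. Late minus 0 h, the miR-CTR series had BCL2 lower (−0.505) and BBC3 higher (0.585), that is 1 member called in each direction, beside 9.79% of all genes lower and 11.0% higher. The miR-16 series had BCL2 (−0.55) and PMAIP1 (−0.995) lower and 0 members higher, beside 11.7% of all genes lower and 14.1% higher. Both series share the single untransfected library, so they are given side by side and are not independent. BCL2 was lower to a like extent with either mimic, at a ratio to 0 h of 0.705 with miR-CTR and of 0.683 with miR-16. PMAIP1 changed by −0.49 with miR-CTR. At a threshold of 1.5-fold neither change of BCL2 was called, whereas those of PMAIP1 with miR-16 and of BBC3 with miR-CTR were.

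BCL2L2 differed from these genes in that its series moved apart, by 0.26 with miR-CTR (0.18 to 0.34) and −0.49 with miR-16 (−0.58 to −0.40). For BAK1 the miR-CTR series was below its start, at −0.295 (−0.39 to −0.20), while the miR-16 series was back at its start at 0.015 (−0.07 to 0.10). MCL1 was lower than at 0 h in both, by −0.32 with miR-CTR and −0.165 with miR-16. BCL2L1 was higher in both, by 0.31 and 0.315. BCL2L11 was higher by 0.24 and 0.27, with counting intervals that include 0 or come close to it. Transfection, culture time, and the added small RNA cannot be told apart in what both mimics share, since untransfected cells were sampled at 0 h only.

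**Figure D4:**
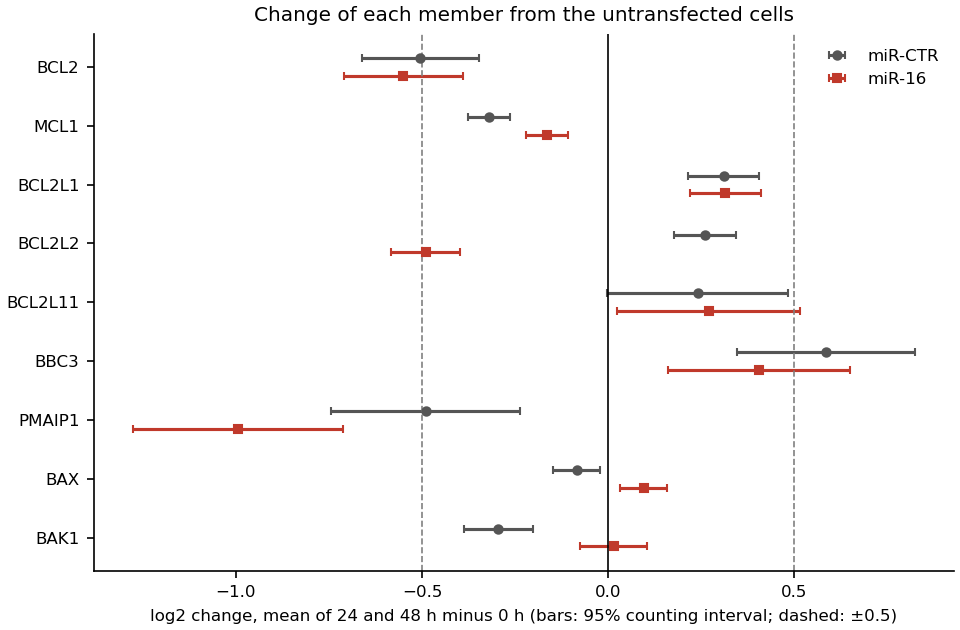
Log2 change of each member from the untransfected library to the mean of 24 and 48 h, with miR-CTR as grey circles and miR-16 as red squares, 95% counting intervals as bars, and dashed lines at 0.5 on either side of 0. BCL2L2 is at 0.26 and −0.49 on opposite sides of 0, whereas BCL2 is at −0.505 and −0.55.

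Within a library, the difference between a pair of partners does not depend on the scaling between libraries. BAX minus BCL2 was 2.42 on the log2 scale in untransfected cells. It was 2.60, 2.84, 2.91, and 2.77 in the miR-CTR series. In the miR-16 series it was 2.68, 2.67, 3.04, and 3.09. Every transfected library was above the untransfected library, and the mimics overlapped. The late difference between the mimics was 0.225 (0.07 to 0.38), and the early difference was −0.05 (−0.19 to 0.10).

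PMAIP1 minus MCL1 was −4.30 in untransfected cells, between −4.49 and −4.28 in the miR-CTR series, whereas the miR-16 series read −4.82, −4.76, −4.99, and −5.27. All 4 miR-16 libraries were below all 5 others. The difference between the mimics was −0.42 early (−0.66 to −0.18) and −0.66 late (−0.92 to −0.40).

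**Figure D5:**
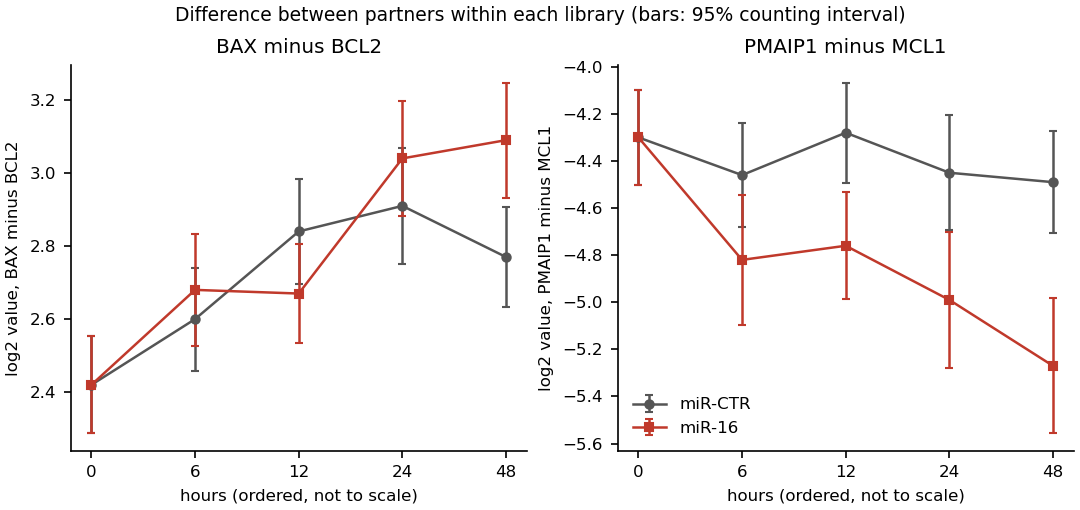
Log2 value of BAX minus BCL2 (left) and of PMAIP1 minus MCL1 (right) in each library against time in hours, in order and not to scale, with miR-CTR in grey and miR-16 in red, both starting at the same untransfected library, and 95% counting intervals as bars. The PMAIP1 minus MCL1 lines separate from 6 h on and end at −4.49 and −5.27.

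Levels can be compared between genes only per length. As normalised reads per kilobase of annotated exon at 0 h, BAX was highest at 1159, followed by MCL1 at 957, BAK1 at 696, BCL2L2 at 394, and BCL2L1 at 385. PMAIP1 followed at 94.5, BBC3 at 60.3, BCL2 at 47.5, and BCL2L11 at 29.2. Effectors and 3 of the guardians were therefore above each BH3-only member, and BCL2 stood among the BH3-only members. BH3-only genes outside the members were not compared per kilobase. BCL2L2 and BCL2L1 did not differ beyond counting error at 0 h, with a log2 ratio of 0.03 (−0.08 to 0.14), and the other neighbours in this order did.

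At 48 h with miR-CTR, BCL2L1 and BCL2L2 were again level at 481 and 479 normalised reads per kilobase. With miR-16 they stood at 481 and 264, a log2 ratio of 0.87 (0.75 to 0.98). BCL2L1 was thus at 1 level with both mimics and BCL2L2 was below it with miR-16 only, in these libraries. BCL2 and BCL2L11 were close at 48 h, at 35.3 and 33.8 in the miR-CTR library, while the miR-16 library had 32.4 and 38.3. The exon lengths pool all annotated transcripts, from 2212 bases for BAK1 to 11765 for BCL2, so the level of BCL2 depends on how much of that length these cells use.

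Further genes of the apoptosis pathway were taken from a list of 55, of which 48 had a row. Of these, 4 were called lower and 3 higher late with miR-16, and their median logFC was −0.04, compared with 0.005 over all genes. The calls, at 8.33% lower and 6.25% higher, stood beside 5.73% and 7.76% of all genes. Among its 6 groups, the medians lay between −0.235 (caspase inhibitors) and 0.03 (death receptor arm). The 9 genes of cytochrome c release and the apoptosome lay between −0.22 and 0.315, and the 7 caspases lay between −0.375 and 0.30, with 0 calls in each.

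BMF, another BH3-only gene, had the largest difference of the 7. It was 10.05 at 0 h, between 9.80 and 10.17 in the miR-CTR series, whereas the miR-16 series read 10.05, 10.43, 10.73, and 11.26. Its miR-16 values were higher at all 4 times, with a late logFC of 0.925 (0.85 to 1.00) and its 3′UTR holds a 7mer-m8 match. FOXO3, a transcription factor that can activate BH3-only genes, was higher by 0.59 late and by 0.51 early. FAS, a death receptor, was higher by 0.525.

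BCL2L12, a more distant relative of the family, had a late logFC of −0.705 (−0.87 to −0.54) and a 7mer-A1 match in a 3′UTR of 226 bases. It reached 7.65 at 48 h with miR-16 against 8.66 with miR-CTR. The caspase inhibitor BIRC5 (survivin), also a mitotic gene, had a late logFC of −0.58 and a 7mer-m8 match. FBXW7, part of a ubiquitin ligase that marks MCL1 for degradation, had a late logFC of −0.575 and both an 8mer and a 7mer-m8. E2F1, a cell cycle transcription factor that can activate BH3-only genes, had a late logFC of −0.68 and no match.

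The genes whose values were most like those of BCL2 over the 9 libraries were ZFP36L2, SRSF10, SOWAHC, ZNF367, and TMEM70, with Pearson's r between 0.938 and 0.945 among 7858 genes. The libraries share the culture time, and all 5 genes were lower than at 0 h with both mimics. ZFP36L2, an RNA-binding protein that promotes mRNA decay, changed by −0.845 with each of the mimics and had a late logFC of 0.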

How the data were processed

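PolyA RNA sequencing of MP41 gave 1 library for each of 9 conditions. Per the submitters' processing notes, the authors used FastQC, STAR 2.4.0a, and featureCounts of Subread 1.5.0-p3 with hg38 (GRCh38). The annotation, strand setting, and normalization tool are not given in the sources used here. The deposited values are log2 (reads divided by a size factor, plus 1) with 2 decimals. This was read from the values: 100% of low linear values (up to 20) were whole multiples of a library-specific step of 0.854 to 1.15 within 0.1 of a step. Dividing by the step gave reads and the counting standard errors.

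The logFC was computed on all 14839 genes with a threshold of 0.5, which follows the study. Single times and windows have no p-value, since no condition was replicated. The difference over the 4 times was fitted with limma 3.58.1 (R 4.3.3; mimic plus time, mean-variance trend) on the deposited log2 values of the 8 transfected libraries, with Benjamini-Hochberg adjustment over all genes. This fit was added after seeing the data. Positions, exon lengths, and 3′UTRs came from GENCODE version 29 on GRCh38 (87.5% of symbols matched 1 gene) and miRNAs from RefSeq. Members and lists were chosen with earlier results of these data known. The text names the members, the called genes of the pathway list, the 5 genes most correlated with BCL2 (mean over 6, range of at least 0.5), and CCND1, CCND3, and WEE1. Calling, read recovery, and the limma fit were tested on simulated data. Alternatives were other scalings, a pseudocount of 5, a threshold of 1.5-fold, a filter on the lowest 25% of genes, 0 h as the reference, single times, and other definitions of a match. Python 3.11.15, pandas 2.3.3, numpy 2.4.6, and matplotlib 3.10.9 were used.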

Additional observations from a re-analysis of the deposited data

Results flagged for a closer look

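The genes looked at were the 9 members, the 4 lower and 3 higher pathway genes called late, and CCND1, CCND3, and WEE1. In 5 of them, both miR-16 values at 24 and 48 h lay on the same side of the untransfected library. Both miR-CTR values lay on the other side. The share of all genes with this pattern is not given here. The pathway genes were chosen by their late difference between the mimics, which favours opposite sides. CCND1, CCND3, and WEE1 were named by the study as miR-16 targets. The count of 5 therefore does not set these genes apart from others. The difference between the changes with each mimic was not tested, and the untransfected library is shared. BCL2L2 changed from 0 h by 0.24 and 0.28 with miR-CTR and by −0.40 and −0.58 with miR-16, a late difference of −0.75. BAX changed by −0.09 and −0.08 with miR-CTR and by 0.07 and 0.12 with miR-16, a late difference of 0.18. E2F1 changed by 0.02 and 0.32 with miR-CTR and by −0.29 and −0.73 with miR-16, a late difference of −0.68. FBXW7 changed by 0.43 and 0.36 with miR-CTR and by −0.26 and −0.10 with miR-16, a late difference of −0.575. WEE1 changed by 0.26 and 0.23 with miR-CTR and by −0.58 and −1.04 with miR-16, a late difference of −1.055. The changes of BAX and the 24 h value of E2F1 with miR-CTR are small beside those of the other genes.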

How the results depend on the processing

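The late call of BCL2L2 held under every alternative that compares the mimics, from −0.64 (24 h alone) to −0.86 (48 h alone), but not with 0 h as the reference (−0.49). The call of PMAIP1 did not hold: 1 member was lower with median centring (PMAIP1 −0.495), a pseudocount of 5 (−0.49), a threshold of 1.5-fold, or 24 h alone (−0.49). Of all 14839 genes, these settings called 808, 786, 599, and 781 lower. With 0 h as the reference, BCL2 and PMAIP1 were the 2 late calls and PMAIP1 (−0.64) the 1 early call. In the course from 0 h with miR-CTR, quantile normalization called 2 members lower, beside 1516 of all genes. A threshold of 1.5-fold called 0 members lower there, beside 1066 of all genes. With miR-16 that threshold left 1 (PMAIP1), beside 1279 of all genes. In the late difference between the mimics it left 2 of the 4 lower pathway genes, beside 599 of all genes. Counting 6mers raised the members with a match from 3 to 5 (46.8% of genes), and 8mers alone left 1.

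Over all genes, the late calls went from 851 lower and 1151 higher to 535 and 441 without the lowest 25% of genes, to 1736 and 2095 against 0 h, and 1330 lower at 48 h alone. The early calls went from 215 lower and 302 higher to 141 lower with a pseudocount of 5, 124 and 186 at 1.5-fold, 41 and 59 without the lowest 25%, 452 lower against 0 h, 495 lower and 502 higher for 6 h alone, and 376 lower and 491 higher for 12 h alone. Other scalings, the pseudocount, and the filter moved none of 45 late and 45 early member values beyond counting error. The filter drops genes and leaves the value of a kept gene as it is, so its part of this outcome was fixed in advance. A pseudocount of 5 shifts values of at least 100 reads little, so its part was nearly fixed as well. All these settings reuse the same reads, so counting error is a loose bound for their shifts. Single times and 0 h as the reference moved 13 of 27 late and 13 of 27 early member values beyond counting error. No scaling moved the median gene by more than 0.015. The fit paired by time, added after seeing the data, called 2 members lower and 1 higher and 850 genes lower and 731 higher over the 4 times. Leaving out each pair gave 0 to 2 members lower, 0 to 1 higher, 0 to 1291 genes lower, and 0 to 1110 higher, with 0 genes called by limma without the 24 h pair (2496 at an unadjusted p under 0.05). Member calls also ended without the 12 h pair, beside 185 of all genes called lower and 196 higher. PMAIP1 was not called without the 48 h pair, beside 632 of all genes called lower and 557 higher. Among the members, depth limits the BH3-only ones most, with 100 to 389 reads.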
